A study of Mus musculus with 14 samples.

Results

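The genes of mismatch repair, base excision repair and nucleotide excision repair were followed in mouse muscle stem cells (MuSCs) that express the RNA-binding protein Lin28a. They were 43 genes taken by name, 6 of mismatch repair, 19 of base excision repair and 18 of nucleotide excision repair, among 14826 named genes with a value in the RNA-seq. Lin28a+ MuSCs had the genotype label Lin28a positive and control MuSCs the label Control. Both came from skeletal muscle, were grown on Matrigel-coated plates in serum-containing medium and had no other treatment. According to the study's text, Lin28a+ MuSCs were sorted by flow cytometry from Lin28a-CreERT2; LSL-tdTomato mice, in which a red reporter is switched on in cells that have used the Lin28a promoter. Each group had 2 input libraries, which are the RNA-seq, 2 libraries of RNA precipitated with an antibody to N6-methyladenosine (m6A-RIP) and 2 libraries of RNA precipitated with an antibody to Igf2bp3 (Igf2bp3-RIP), a reader of m6A. Lin28a+ MuSCs had 2 further libraries of RNA precipitated with Lin28a (Lin28a-RIP), with no control library of the same kind, and Lin28a itself was not analysed here. The labels do not say whether the libraries of a group came from separate mice or cultures, so p-values measure the spread between these libraries, which may be technical.

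These pathways replace damaged or mispaired bases by excision and new synthesis. In mismatch repair, MutS proteins find the mispair, MutL proteins nick the new strand and an exonuclease removes it. In base excision repair a glycosylase cuts out one altered base, an AP endonuclease opens the strand, and a polymerase and a ligase close the gap. In nucleotide excision repair a bulky lesion is found either by XPC and the DDB complex anywhere in the genome or by a stalled RNA polymerase in a transcribed gene, after which the general transcription factor TFIIH opens the helix and a pair of nucleases cut the damaged strand out.

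The counts of a library summed to 4842915 to 6220960 in the input, 21350962 to 31830638 in m6A-RIP, 9215355 to 34142094 in Igf2bp3-RIP and 33908110 to 36610494 in Lin28a-RIP. Myogenic cells were present in all 4 input libraries, where Myod1, which drives the muscle programme, stood between 4652 and 4726 CPM, the usual count unit for a common library size, here after TMM scaling. Pax7, which marks MuSCs, was 143 and 154 CPM in the control libraries and 193 and 188 CPM in the Lin28a+ libraries, whereas Myf5 was 452 and 465 CPM against 197 and 200 CPM. Myog, a gene of differentiating myoblasts, was 766 and 775 CPM in the control libraries and 2769 and 2808 CPM in the Lin28a+ libraries. Of the 10 myogenic genes looked at, these included, 3 were higher and 5 were lower, and their median log2 fold change was -0.29. Of 21 genes of S phase 19 were higher and 1 was lower, and their median log2 fold change was 0.91. Of 18 genes of G2 and M phase 15 were higher and 2 were lower, with a median of 1.01. Over all 11310 genes tested 28.1% were higher and 28.7% were lower. Among markers of other cells, the summed level of the 8 fibro-adipogenic genes, 4 of them not listed in the input table, was 4.50 to 5.31 CPM in control and 13.1 to 14.0 CPM in Lin28a+ MuSCs. The sum of the 7 pericyte or smooth muscle genes, 1 of them not listed, was 5412 to 5451 CPM against 7481 to 7502 CPM, and 3 of the 4 tested were higher and 1 lower. The 7 endothelial genes, 5 of them not listed, summed to less than 1 CPM in every library, with none tested, and the 7 macrophage genes, 2 of them not listed, to 3.22 to 4.12 CPM against 3.73 to 5.52 CPM. The part of these differences in the results on repair genes was not tested.

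RNA of the base excision repair genes was higher in Lin28a+ MuSCs wherever it differed, while nucleotide excision repair genes were called in both directions at shares near those of all genes. Of the 43 genes, 41 passed the filter on low counts (Msh3 and Neil2 did not), 15 were higher and 5 were lower. The share higher was 36.6% where 28.1% of all 11310 genes tested were higher, and the share lower was 12.2% where 28.7% of all genes were lower. A call is an adjusted p under 0.05 in edgeR's quasi-likelihood test with Benjamini-Hochberg adjustment over all genes. The median log2 fold change of the 41 genes was 0.28, beside 0.0093 over all genes, and 30 of the 41 values were above 0. By branch, 1 of 5 mismatch repair genes was higher and 0 were lower, 8 of 18 base excision repair genes were higher and 0 were lower, and 6 of 18 nucleotide excision repair genes were higher (33.3%) and 5 were lower (27.8%), close to the shares over all genes. Of the 20 called genes 3 differed by at least 2-fold and 12 by at least 1.5-fold. DESeq2, the tool the study names for its transcriptome, called 2 members higher (Apex1 and Tdg) and 1 lower (Gtf2h1), at backgrounds of 13.1% and 13.9%. These are bulk samples, so that a difference in RNA per cell and a difference in the share of cells that hold the RNA cannot be told apart.

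**Figure D1:**
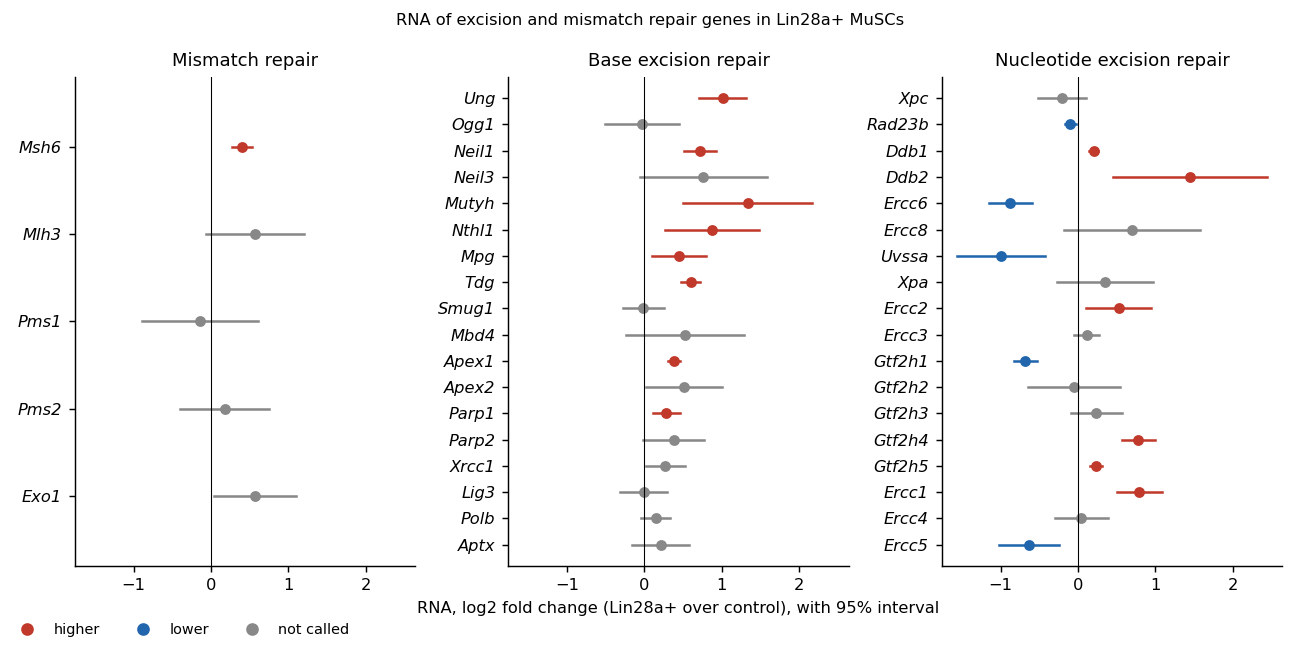
RNA difference of the 41 tested repair genes between Lin28a+ and control MuSCs, in 3 panels by branch, as log2 fold change with its 95% interval (edgeR, 2 libraries per group); red genes were higher, blue genes lower and grey genes did not pass the adjusted threshold. The base excision panel holds 8 red genes and 0 blue genes, and the nucleotide excision panel 6 red and 5 blue genes.

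In base excision repair 6 of the 8 called genes encode glycosylases, which carry out the first step. Of 11 glycosylases 10 were tested, 6 were higher and 0 were lower, with a median log2 fold change of 0.66. Over all genes tested 28.1% were higher and 28.7% lower, and of these 6 calls DESeq2 kept that of Tdg. Mutyh (ENSMUSG00000028687, chr4:116807636-116819439 in GRCm38), which removes adenine paired with oxidised guanine, was 1.31 and 1.29 CPM in the control libraries and 3.54 and 3.07 CPM in the Lin28a+ libraries. Both Lin28a+ values lay above both control values, and the log2 fold change was 1.33 (SE 0.426, adjusted p = 0.0043 by edgeR's quasi-likelihood test). These levels rest on 7 to 18 counts per library. Ung (ENSMUSG00000029591, chr5:114130366-114139321), which removes uracil from DNA, was 4.12 and 3.54 CPM in the control libraries and 7.67 and 7.77 CPM in the Lin28a+ libraries. Its groups did not overlap either, and the log2 fold change was 1.01 (SE 0.122, adjusted p = 0.00089). Nthl1 (ENSMUSG00000041429, chr17:24632680-24638838), which removes oxidised pyrimidines, was 2.81 and 3.06 CPM against 5.31 and 5.52 CPM, a log2 fold change of 0.87 (SE 0.309, adjusted p = 0.0103). This call was lost without control replicate 1 and without Lin28a+ replicate b, where the log2 fold change stayed between 0.82 and 0.94 over all settings.

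Neil1, another glycosylase of oxidised bases, was 11.8 and 10.8 CPM in the control libraries and 17.9 and 19.2 CPM in the Lin28a+ libraries, and its log2 fold change was 0.72 (SE 0.0813). Tdg (ENSMUSG00000034674, chr10:82629814-82650799), which removes thymine and oxidised methylcytosine from pairs with guanine and so also acts in DNA demethylation, was 27.0 and 26.6 CPM against 39.9 and 41.1 CPM. Its log2 fold change of 0.60 (SE 0.0498, adjusted p = 2.3e-04) passed under every setting tried, DESeq2 included. Mpg, which removes alkylated purines, had a log2 fold change of 0.44 (adjusted p = 0.0253), with 10.7 and 10.1 CPM in the control libraries and 13.2 and 15.1 CPM in the Lin28a+ libraries, and was lost when control replicate 1, control replicate 2 or Lin28a+ replicate b was left out. The glycosylases that did not pass were Neil3 at 0.76, Mbd4 at 0.53, Smug1 at -0.01 and Ogg1 at -0.04. For Neil3 and Mbd4 the 95% intervals ran from -0.06 to 1.58 and from -0.24 to 1.29, so that a difference of the size seen in Mutyh could not be told from none at this depth for Neil3. For Ogg1 the interval of -0.52 to 0.44 excluded it.

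The promoters of Mutyh, Ung and Nthl1 are shown because these were the called glycosylases with the largest RNA differences, and the same short motifs were looked for in all members. Sequences are from RefSeq on GRCm38.p6, plus strand. The windows searched hold the 250 bases before a listed transcript start, and these windows reach 98, 69 and 2 bases into the gene as positioned above, where another transcript starts earlier. The part before the gene is printed (chr4:116807484-116807635, chr5:114130185-114130365 and chr17:24632432-24632679), which overlaps the neighbouring genes Toe1 by 118 bp, Alkbh2 by 181 bp and Tsc2 by 245 bp. Capitals mark the CCAAT motif, read as CCAAT or as ATTGG on the other strand, and the E2F-type motif TTTCGCGC.
Mutyh: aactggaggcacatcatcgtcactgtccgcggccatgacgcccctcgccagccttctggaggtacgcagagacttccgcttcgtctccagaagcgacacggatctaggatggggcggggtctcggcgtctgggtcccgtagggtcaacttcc
Ung: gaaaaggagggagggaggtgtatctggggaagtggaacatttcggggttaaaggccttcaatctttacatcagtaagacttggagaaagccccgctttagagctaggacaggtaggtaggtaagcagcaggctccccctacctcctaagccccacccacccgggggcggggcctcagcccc
Nthl1: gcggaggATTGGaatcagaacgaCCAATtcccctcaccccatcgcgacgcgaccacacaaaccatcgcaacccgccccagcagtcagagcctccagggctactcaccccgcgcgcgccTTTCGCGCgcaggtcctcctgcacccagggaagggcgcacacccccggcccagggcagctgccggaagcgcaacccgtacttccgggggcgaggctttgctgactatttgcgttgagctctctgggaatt
The printed parts of Mutyh and Ung hold 0 motifs of either kind, and that of Nthl1 holds 2 CCAAT motifs and 1 E2F-type motif. The CCAAT motif in the first window of Mutyh lies in the 98 bases inside the gene. Of the 6 called glycosylases, Mutyh, Nthl1, Mpg and Tdg had CCAAT in a window and Ung and Neil1 did not.

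Of the 43 genes, 36 had a promoter entry. CCAAT was present in 21 of the 36 (58.3%), against 37.5% of 27025 genes and 41.2% of 8595 genes expressed here. It was present in 8 of the 14 matched genes with higher RNA and in 2 of the 5 with lower RNA. An E2F-type motif (TTTCCCGC, TTTGGCGC, TTTCGCGC or TTTGCCGC, either strand) was present in 2 of 36, Msh3 and Nthl1 (5.56%, against 2.16% of all and 4.17% of expressed genes). The ETS-type motif CCGGAAG was present in 5 of 36 (13.9%, against 7.83% and 16.9%). A match describes these letters in this window and is not a measured site.

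After base removal, Apex1 (ENSMUSG00000035960, chr14:50924949-50927188), the main AP endonuclease, was 105 and 104 CPM in the control libraries and 135 and 137 CPM in the Lin28a+ libraries. All Lin28a+ values were higher and close to each other, and the log2 fold change was 0.38 (SE 0.0297, adjusted p = 1.84e-04), a call kept under every setting tried. Its relative Apex2 had a log2 fold change of 0.51 with a 95% interval from 0.02 to 1.00 and did not pass after adjustment (adjusted p = 0.0672). Among the 6 genes of break sensing, gap filling and ligation, Parp1, which binds strand breaks and makes poly(ADP-ribose), was the member called, at 46.7 and 45.5 CPM in the control libraries and 56.4 and 55.8 CPM in the Lin28a+ libraries (log2 fold change 0.28, SE 0.0873). The scaffold Xrcc1 had 0.27 (adjusted p = 0.0551), Parp2 had 0.38, the end-processing enzyme Aptx 0.21, the gap-filling polymerase Polb 0.15 and the ligase Lig3 -0.01. For Lig3 the libraries overlapped, with 15.2 and 16.7 CPM against 15.9 and 15.9 CPM, and the 95% interval ran from -0.31 to 0.30.

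In mismatch repair, Msh6 (ENSMUSG00000005370, chr17:87975050-87990892), the MutS protein for single mispairs, was 33.2 and 32.8 CPM in the control libraries and 42.5 and 45.0 CPM in the Lin28a+ libraries. The groups did not overlap, and its log2 fold change was 0.41 (SE 0.0521, adjusted p = 0.00117). The exonuclease Exo1 had a log2 fold change of 0.57 with a 95% interval from 0.04 to 1.10 and an adjusted p of 0.0614. The MutL proteins Mlh3, Pms2 and Pms1 had 0.57, 0.18 and -0.14, and none of them passed at 12 to 25 counts per library. Msh3, the MutS protein for small loops, was not tested at 1.87 and 1.77 CPM in the control libraries and 1.77 and 1.64 CPM in the Lin28a+ libraries.

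In nucleotide excision repair, 2 of the 4 genes of damage recognition across the genome were higher and 1 was lower. Over all genes tested the shares were 28.1% higher and 28.7% lower. In this route Ddb2 (ENSMUSG00000002109, chr2:91211545-91237132), the subunit that binds ultraviolet lesions, was 0.749 and 0.966 CPM in the control libraries and 2.16 and 2.66 CPM in the Lin28a+ libraries. The Lin28a+ libraries were the higher ones, with a log2 fold change of 1.45 (SE 0.507, adjusted p = 0.00941) from 4 to 13 counts per library, and the call was lost without control replicate 1 and without Lin28a+ replicate b. Ddb1, its partner in the DDB complex and an adaptor of the CUL4 ubiquitin ligase, was 281 and 286 CPM against 329 and 325 CPM. This difference was small and larger than the spread between libraries, at a log2 fold change of 0.20 (SE 0.0249, adjusted p = 9.62e-04). Rad23b, which stabilises the lesion sensor Xpc, was slightly lower at -0.10 (275 and 271 CPM against 255 and 255 CPM, adjusted p = 0.0235), and this call was lost in 6 of 9 settings. Xpc itself had -0.20 with a 95% interval from -0.51 to 0.11.

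For the route that starts at a stalled RNA polymerase, 2 of 3 genes were lower and 0 were higher (28.7% and 28.1% of all genes tested). Ercc6 (ENSMUSG00000054051, chr14:32513291-32580990), also named CSB and recruited to the stalled polymerase, was 13.3 and 12.9 CPM in the control libraries and 7.86 and 6.34 CPM in the Lin28a+ libraries. Both Lin28a+ libraries lay below both control libraries, with a log2 fold change of -0.88 (SE 0.112, adjusted p = 0.00112). Uvssa (ENSMUSG00000037355, chr5:33378523-33420899), which brings TFIIH to that complex, was 6.56 and 6.28 CPM in the control libraries and 2.36 and 4.09 CPM in the Lin28a+ libraries. The Lin28a+ libraries of Uvssa differed from each other, and the log2 fold change of -0.99 (SE 0.227, adjusted p = 0.0124) became -0.64 and lost its call without Lin28a+ replicate a. Ercc8, also named CSA, had 0.70 with a 95% interval from -0.18 to 1.58.

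The later steps were mixed as well. Of the 7 TFIIH genes 3 were higher and 1 was lower (28.1% and 28.7% of all genes tested). Gtf2h4 (ENSMUSG00000001524, chr17:35667728-35673750) was 6.93 and 7.24 CPM in the control libraries and 12.6 and 11.9 CPM in the Lin28a+ libraries, without overlap and with a log2 fold change of 0.78 (SE 0.0856, adjusted p = 6.26e-04). The helicase Ercc2 had 0.53 (7.12 and 6.92 CPM against 10.2 and 10.0 CPM), a call lost when any of the 4 libraries was left out. The small subunit Gtf2h5 had 0.23 (102 and 102 CPM against 120 and 119 CPM). Gtf2h1 (ENSMUSG00000006599, chr7:46796094-46823800) went the other way, with 33.7 and 32.0 CPM in the control libraries and 20.2 and 20.6 CPM in the Lin28a+ libraries, and its log2 fold change of -0.68 (SE 0.059, adjusted p = 2.61e-04) was kept under every setting. The helicase Ercc3 had 0.11, Gtf2h3 0.24 and Gtf2h2 -0.05, and the damage verifier Xpa 0.35, none of them called.

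Of the 3 genes of the incision nucleases 1 was higher, 1 was lower and 1 was not called (28.1% of all genes tested were higher and 28.7% lower). Ercc1 (ENSMUSG00000003549, chr7:19344067-19356524), the partner of the nuclease on the 5′ side, was 6.18 and 7.56 CPM in the control libraries and 12.4 and 11.7 CPM in the Lin28a+ libraries, a log2 fold change of 0.79 (SE 0.115, adjusted p = 0.00195). Its catalytic partner Ercc4 was 12.4 and 12.9 CPM against 14.5 and 11.4 CPM, with overlapping groups and a log2 fold change of 0.04. Ercc5 (ENSMUSG00000026048, chr1:44146948-44181260), the nuclease on the 3′ side, was 12.9 and 12.1 CPM in the control libraries and 7.86 and 8.18 CPM in the Lin28a+ libraries. Here the Lin28a+ libraries were the lower ones, with a log2 fold change of -0.64 (SE 0.197, adjusted p = 0.00328). DESeq2 gave the same direction for all 20 called genes and an adjusted p over 0.05 for 17 of them, from 0.0619 for Ddb1 to 0.437 for Mpg.

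**Figure D2:**
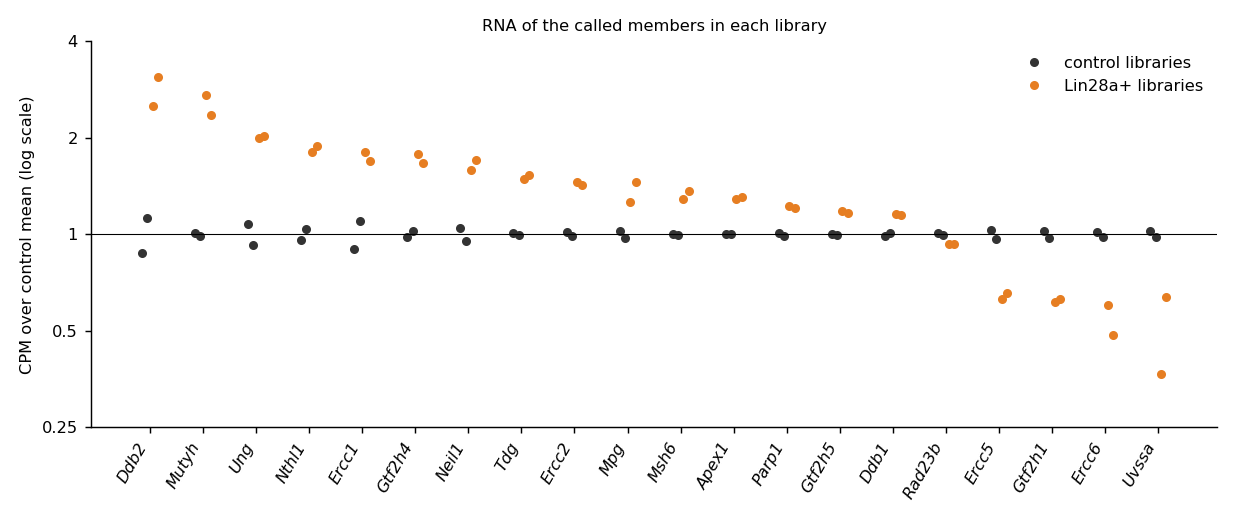
CPM of each of the 4 input libraries divided by the control mean of the gene, on a log axis, for the 20 repair genes called in RNA; each point is 1 library. The genes run from Ddb2 with the largest difference upwards to Uvssa with the largest downwards. They were picked by a test on these same 4 libraries, so the separation of the groups seen here adds no support.

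Genes that share later steps with these pathways were described for comparison, from a list of 39 genes for repair synthesis, clamp loading, ligation and related factors. Of 37 tested, 23 were higher and 6 were lower (28.1% and 28.7% of all genes tested were), and their median log2 fold change was 0.53. The clamp loader subunit Rfc4 had 1.57 (10.1 and 10.3 CPM against 30.1 and 30.7 CPM), and the polymerase subunits Pold2, Pole2 and Pold1 had 1.29, 1.22 and 1.17. Many of these genes also serve DNA replication, and whether their RNA follows that of the S phase genes given above was not tested.

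The m6A-RIP table held rows for 26 of the 43 genes (60.5%, against 65.6% of 11310 expressed genes). With the rows of a gene summed, 11 of the 26 were higher (42.3%, where 32.5% of all 9416 genes were) and 5 were lower (19.2%, where 33.8% of all were) in Lin28a+ MuSCs. The median log2 fold change was 0.07, beside 0.0070 over all genes. Scaled by total counts in place of TMM, 8 were higher (25.4% of all genes were) and 9 were lower (40.0% of all were), so the balance of calls among the members depends on the scaling. With TMM all 10 of the called mismatch and base excision repair genes were higher, 4 of 5 and 6 of 11 tested, and 1 of 10 nucleotide excision repair genes was higher while 5 were lower. Scaled by total counts 2 of 5 and 5 of 11 were higher, 0 of these were lower, and in nucleotide excision repair 1 was higher and 9 were lower. A count of m6A-RIP follows both the methylation and the amount of an RNA, so these values are a level of precipitated RNA.

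Ung had the largest m6A-RIP difference, with 6.61 and 7.60 CPM in the control libraries and 18.0 and 17.4 CPM in the Lin28a+ libraries (log2 fold change 1.32, SE 0.141, adjusted p = 4.08e-06). Exo1 was 6.70 and 5.92 CPM against 14.0 and 10.5 CPM, with 0.94 (SE 0.177, adjusted p = 4.73e-04). In both genes every Lin28a+ library lay above every control library. Mlh3 had 0.82 (1.67 and 1.54 CPM against 2.83 and 2.87 CPM) and Neil3 0.86 (1.30 and 2.62 CPM against 3.48 and 3.40 CPM), at levels near the lower end of the members. Ogg1 had 0.49 (10.1 and 9.31 CPM against 13.5 and 13.8 CPM), Nthl1 0.38 (8.40 and 7.73 CPM against 9.52 and 11.5 CPM) and Pms2 0.32 (15.1 and 17.9 CPM against 20.8 and 20.4 CPM). Apex1 was 255 and 247 CPM in the control libraries and 326 and 325 CPM in the Lin28a+ libraries (0.37), and Xrcc1 108 and 108 CPM against 135 and 131 CPM (0.29). Msh6 had 0.23 (67.3 and 73.8 CPM against 84.4 and 80.8 CPM). The value of Neil3 rested on its control libraries, at 0.39 without control replicate 1 (adjusted p = 0.338) and 1.39 without control replicate 2. Pms2 had 0.20 without control replicate 1 and Nthl1 had 0.23 without Lin28a+ replicate b, neither of them called there. The calls of Msh6, Mlh3, Pms2, Neil3 and Nthl1 were each lost under at least 1 other setting, and those of the other 11 called genes were kept under all 9.

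Among nucleotide excision repair genes the lower ones were led by Gtf2h1, with 29.8 and 28.1 CPM in the control libraries and 16.5 and 17.6 CPM in the Lin28a+ libraries (log2 fold change -0.76, SE 0.0961, adjusted p = 1.77e-05). Ercc6 had -0.70 (11.4 and 9.68 CPM against 6.91 and 6.17 CPM), Ercc5 -0.49 (69.2 and 69.4 CPM against 49.9 and 48.9 CPM) and Rad23b -0.20 (131 and 132 CPM against 110 and 119 CPM). Gtf2h4 had -0.39, from 576 and 576 CPM in the control libraries to 438 and 444 CPM in the Lin28a+ libraries. For all 5 genes the Lin28a+ libraries were below the control libraries. Gtf2h5 was the exception in this branch, at 92.6 and 97.7 CPM against 126 and 131 CPM (0.43).

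Set beside the RNA, 5 genes were higher in both assays (Msh6, Ung, Nthl1, Apex1 and Gtf2h5) and 4 were lower in both (Rad23b, Ercc6, Gtf2h1 and Ercc5). A further 6 were called higher in m6A-RIP and not called in RNA (Mlh3, Pms2, Exo1, Ogg1, Neil3 and Xrcc1). Parp1 and Ercc1 were higher in RNA and not called in m6A-RIP. With TMM scaling Gtf2h4 was the gene called in opposite directions, and scaled by total counts Ercc1 was called lower in m6A-RIP too. The difference between the assays was tested in 1 model over both, as the change in m6A-RIP minus the change in RNA.

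In that model 0 of the 26 genes were higher relative to input (3.06% of all 7950 genes were) and 2 were lower (4.1% of all were), Gtf2h4 and Ercc1. At an unadjusted p under 0.05 there were 4, where 17.0% of all genes had such a p, the others being Ercc3 at -0.28 and Gtf2h5 at 0.18. For Gtf2h4 the term was -1.19 on the log2 scale (SE 0.119, 95% interval -1.45 to -0.92, adjusted p = 1.48e-04 by edgeR's quasi-likelihood test), and it lay between -1.23 and -1.14 over 13 other settings. For Ercc1 it was -0.87 (SE 0.136, 95% interval -1.17 to -0.57, adjusted p = 0.00263), and it lay between -1.03 and -0.74, with an adjusted p of up to 0.0493. Ercc1 in m6A-RIP was 149 and 151 CPM in the control libraries and 144 and 144 CPM in the Lin28a+ libraries, while its RNA rose as given above. The 6 genes called in m6A-RIP alone had terms between 0.01 for Xrcc1 and 0.51 for Ogg1, and none passed, so that their m6A-RIP changes were not shown to differ from their RNA changes.

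**Figure D3:**
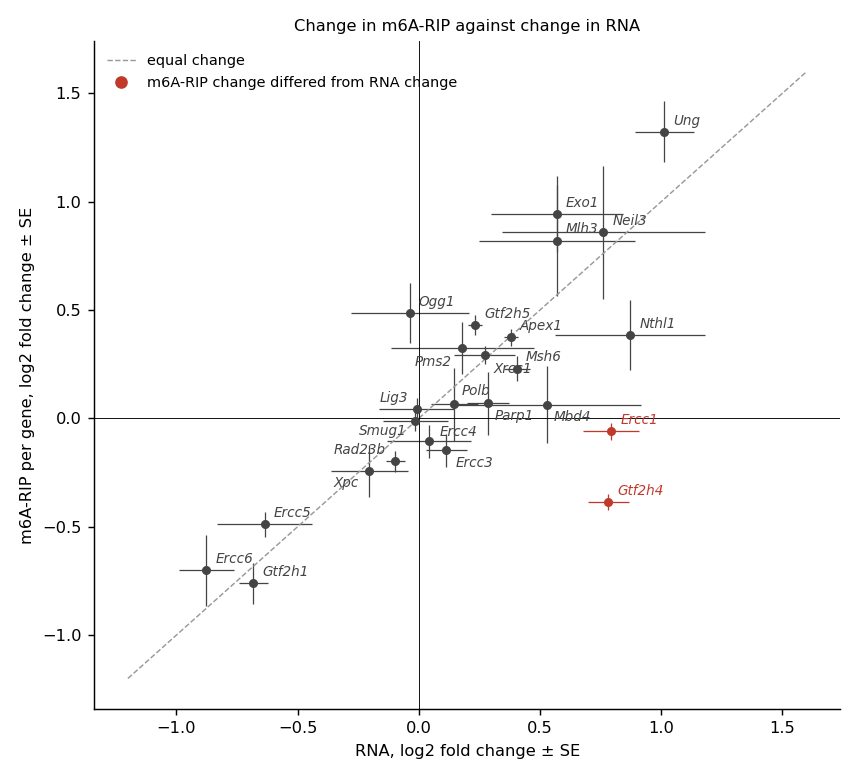
Log2 fold change in m6A-RIP (vertical) against log2 fold change in RNA (horizontal) for the 25 repair genes tested in both, with bars of 1 SE; the dashed line marks equal change. Gtf2h4 (0.78 in RNA, -0.39 in m6A-RIP) and Ercc1 (0.79 and -0.06), in red, lie below the line, and the other points lie nearer to it.

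Gtf2h4 and Ercc1 also had the highest m6A-RIP level relative to input among the 26 genes. In control MuSCs the ratio of m6A-RIP CPM to input CPM was 81.3 for Gtf2h4, at the 97.6th percentile of 7950 genes, and 21.8 for Ercc1, at the 94.6th percentile. In Lin28a+ MuSCs the ratios were 36.1 and 12.0. The next member, Ercc5, stood at 5.54 in control and 6.16 in Lin28a+ MuSCs. Gtf2h4 lies next to Ddr1, a collagen receptor gene, and the transcript that names its m6A-RIP row also names a Lin28a-RIP peak 8.54 kb outside Gtf2h4 and inside Ddr1. The RNA of Ddr1 was 106 and 112 CPM in the control libraries and 83.7 and 83.6 CPM in the Lin28a+ libraries (log2 fold change -0.39), and the m6A-RIP row of Ddr1 itself had -0.40. Ercc1 overlaps Cd3eap by 518 bp, and the RNA of Cd3eap was 58.3 and 64.1 CPM against 53.1 and 57.2 CPM (-0.16, adjusted p = 0.0965). The m6A-RIP table gives no positions, so whether reads of these neighbours are among the m6A-RIP counts of Gtf2h4 and Ercc1 was not tested.

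Rows of the same gene could be compared for 12 members. Over all 48 rows of members 15 were higher and 9 were lower, at backgrounds of 30.0% and 31.8% of all 18881 rows, and scaled by total counts 9 were higher and 12 lower, at 20.3% and 40.5%. Tested against the other rows of their gene, a comparison added after values had been seen, 7.79% of 14366 rows differed, and among members a row of Ercc3 (adjusted p = 0.0408, edgeR's diffSpliceDGE) and a row of Lig3 (adjusted p = 0.0457, same test) did. The last row of Lig3 was 3.28 and 3.19 CPM in the control libraries and 6.21 and 4.88 CPM in the Lin28a+ libraries (log2 fold change 0.77), while its other 4 rows lay between -0.06 and 0.13. The first row of Ercc3 was 6.24 and 5.31 CPM against 3.55 and 3.32 CPM (-0.76), and its other rows had 0.02 and -0.02.

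The Ercc3 row carries the name of a transcript whose 21 peaks in the Lin28a-RIP and Igf2bp3-RIP tables lie 3.95 to 36.5 kb outside Ercc3, inside the neighbouring kinase gene Map3k2. Map3k2 RNA was 36.0 and 38.0 CPM in the control libraries and 17.7 and 15.9 CPM in the Lin28a+ libraries (-1.14), and the RIP tables list no row under its own name. For Ercc5 the first row, whose transcript has a peak 3.16 kb outside the gene and inside Bivm, had -0.02, and the other rows, named by an Ercc5 transcript with its peaks inside the gene, had -0.50 and -0.72. The rows of Ogg1, named by a transcript with a peak 2.29 kb outside in Brpf1, had 0.32 and 1.25. The RNA of Brpf1 had a log2 fold change of 0.41 (adjusted p = 0.0294) and its own m6A-RIP 0.33, beside -0.04 for the RNA of Ogg1. The Lin28a-RIP and Igf2bp3-RIP counts under Ercc3, Ercc5 and Ogg1 thus include peaks that lie in a neighbouring gene. Whether the m6A-RIP rows under these names, which have no positions, include RNA of a neighbour was not tested.

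**Figure D4:**
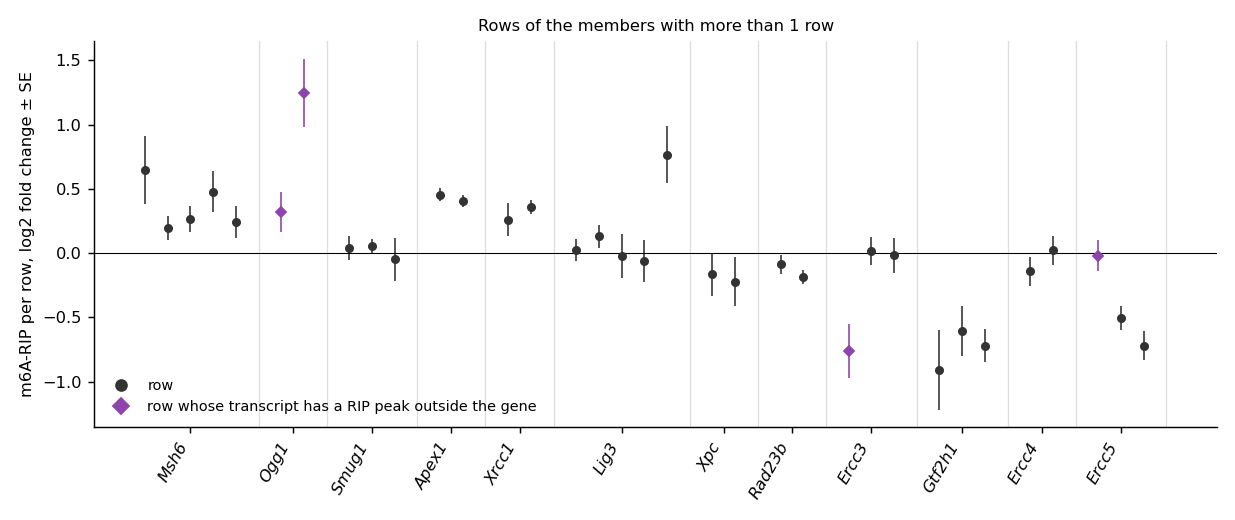
Log2 fold change in m6A-RIP of each row of the 12 repair genes with more than 1 row, with bars of 1 SE; diamonds mark rows whose transcript has a RIP peak outside the gene. The last row of Lig3 (0.77) lies above its other rows, and the first row of Ercc3 (-0.76) lies below its other rows.

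Lin28a-RIP peaks were listed for 13 of the 43 genes (30.2%, where 25.4% of expressed genes had one) and for 11 of them inside the gene itself. This is a description of 2 libraries without a control precipitation. The 13 genes had 68 peaks, of which 59 lay in the named gene (86.8%, and 86.1% of all 21616 peaks). Of the 6 mismatch repair genes 4 had a peak, of the 19 base excision repair genes 3 and of the 18 nucleotide excision repair genes 6.

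Ddb1 (ENSMUSG00000024740, chr19:10605568-10629828) had the most peaks, 20 over 6783 bp, with 124749 and 111918 counts in the Lin28a-RIP libraries and 3489 counts per 100 bp of peak. Its Lin28a-RIP level relative to input was 3.36 on the log2 scale, at the 71.7th percentile of 3016 genes with peaks. Ercc5 had 9 peaks over 3117 bp and 3729 and 3542 counts, with 3.69 relative to input (76.5th percentile). Lig3 had 8 peaks and Parp1 7, with 2.66 and 1.58 relative to input. Msh6 had 5 peaks with 12915 and 12102 counts, and its widest peak, of 2632 bp, lay at chr17:87984253-87986884. At the other end Rad23b had 1 peak of 229 bp and -2.85 relative to input, at the 2.88th percentile. Msh3, Pms2, Neil3 and Ercc6 had 2 peaks each and Mlh3 had 1, all in the gene. The 8 peaks named Ercc3 and the 1 named Gtf2h4 lay outside these genes.

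Igf2bp3-RIP peaks were listed for 13 genes as well (30.2%, where 32.9% of expressed genes had one), with 49 peaks, 34 of them in the named gene (69.4%, and 80.6% of all 19465 peaks). Of the 13, 10 were also in the Lin28a-RIP table. The table held 5 of the 6 mismatch repair genes, 3 of the 19 base excision repair genes and 5 of the 18 nucleotide excision repair genes. Of the 59 Lin28a-RIP peaks that lay in the named member 17 shared at least 1 bp with a peak of Igf2bp3 (28.8%, and 51.7% of all 18609 such peaks), and of the 34 Igf2bp3-RIP peaks in the named member 17 shared bases with a Lin28a-RIP peak (63.2% of all 15693 did). With the peaks outside the genes the counts were 25 of 68 and 27 of 49, of which 8 and 10 carry the name of Ercc3 and lie in Map3k2. The share of 28.8% leans on a few genes. Ddb1 gave 20 of the 59 Lin28a-RIP peaks, of which 3 shared bases with a peak of Igf2bp3. Parp1 gave 7, of which 0 did, and Msh6 gave 5, of which 3 did.

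**Figure D5:**
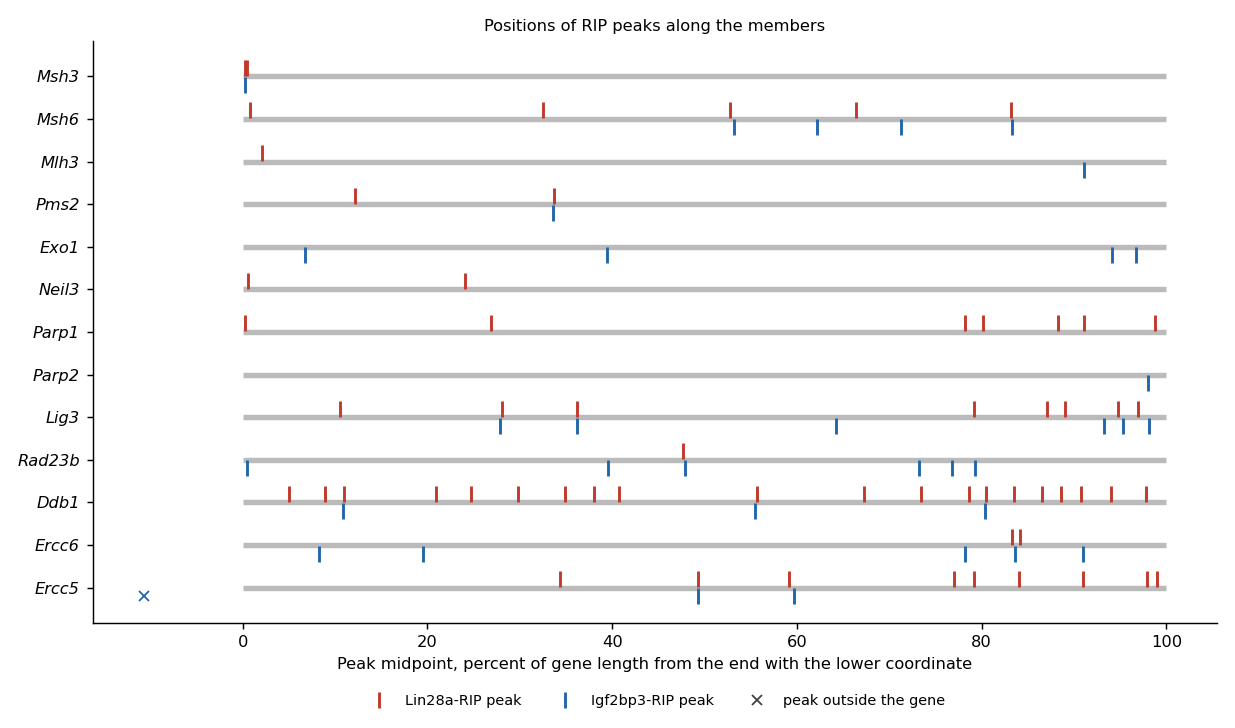
Midpoints of Lin28a-RIP and Igf2bp3-RIP peaks along the 13 repair genes with a peak in the gene itself, as percent of gene length from the end with the lower coordinate; the cross marks an Igf2bp3-RIP peak of Ercc5 outside the gene. Ddb1 holds 20 Lin28a-RIP and 3 Igf2bp3-RIP peaks, and Exo1, Parp2, Neil3 and Parp1 hold peaks of 1 kind.

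Between Lin28a+ and control MuSCs 0 of the 49 Igf2bp3-RIP peaks passed edgeR's test, where 0.123% of all 19465 peaks did, and DESeq2 called 0, where it called 1.35% of all. At an unadjusted p under 0.05 there was 1, where 5.22% of all peaks were, a peak of Ercc5 at chr1:44167336-44167536 with 9.89 and 12.0 CPM in the control libraries and 6.12 and 7.07 CPM in the Lin28a+ libraries (log2 fold change -0.73). The spread between libraries was wide in this assay, with a biological coefficient of variation of 27.9% per peak and 25.4% per gene. Per gene it was 2.48% for RNA and 5.74% for m6A-RIP. With a replicate block, an alternative described at the end, 2 of the 49 peaks (in Mlh3 and Ddb1) and 1988 of all 19465 were called. The peak of Mlh3 at chr12:85267284-85267589 was 6.38 and 1.50 CPM in the control libraries and 11.0 and 6.39 CPM in the Lin28a+ libraries (1.23, 95% interval -0.39 to 2.84), where the lower Lin28a+ value and the higher control value were nearly equal. Summed per gene, Ddb1 was 284 and 286 CPM against 220 and 178 CPM (-0.52), and 0 of 13 genes were called, where 0.287% of all genes were.

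Relative to input 0 of 13 genes passed (1.04% of all 3927 genes did), and 4 had an unadjusted p under 0.05, where 24.2% of all genes had. They were Ddb1 at -0.95 (95% interval -1.42 to -0.48, adjusted p = 0.068), Msh6 at -0.80 (-1.26 to -0.34, adjusted p = 0.0821), Exo1 at -0.91 (adjusted p = 0.179) and Ercc5 at 0.53 (adjusted p = 0.131). The RNA of Ddb1 and Msh6 was called higher and that of Ercc5 lower, while the Igf2bp3-RIP of these genes was not called. Most of the Igf2bp3-RIP count of Ercc5, 665 of 835 and 1681 of 2104 in the Lin28a+ libraries, came from the peak outside the gene in Bivm, whose log2 fold change was 0.41. The peaks inside Ercc5 had -0.52 and -0.73, so the positive value of Ercc5 relative to input rests on the peak in Bivm. DESeq2 called Ddb1 (adjusted p = 0.0363), where it called 2.32% of all genes. Without Igf2bp3-RIP Lin28a+ replicate 1 edgeR called 3 members, where it called 14.5% of all genes, and without replicate 2 it called 2, where it called 5.04%, Ddb1 and Msh6 among them in each case.

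By their presence in the tables, 9 genes were in all 3 RIP tables (Msh3, Msh6, Mlh3, Pms2, Lig3, Rad23b, Ercc6, Ercc3 and Ercc5), which is 20.9% of members beside 17.1% of expressed genes. Ercc3 is among the 9 by name alone, since all its Lin28a-RIP and Igf2bp3-RIP peaks lie outside the gene, in Map3k2. There were 15 genes in none of the 3 tables (34.9%, beside 28.0% of expressed genes). Of the 15, 14 were tested in RNA, 6 were higher (Neil1, Mutyh, Mpg, Tdg, Ddb2 and Ercc2) and 1 was lower (Uvssa), where 27.8% of all 3164 such genes were higher and 21.4% lower. A further 12 genes were in the m6A-RIP table alone (27.9%, beside 34.0% of expressed genes), Ung, Nthl1 and Apex1 among them. Of the 11 genes with a Lin28a-RIP peak in the gene 10 were tested in RNA, 3 were higher (Msh6, Parp1 and Ddb1), 3 were lower (Rad23b, Ercc6 and Ercc5) and 4 were not called, where 19.1% of all 2497 such genes tested were higher and 45.8% lower. Of the 32 genes without such a peak 31 were tested, 12 were higher, 2 were lower and 17 were not called, where 30.7% of all 8813 such genes were higher and 23.9% lower. The tables list peaks the authors called, and how a low RNA level bears on the absence of a peak was not tested.

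Reads may be shared with a neighbour in 12 members whose gene overlaps another coding gene, since the strand setting of the counting is not given in the sources used here. Among the genes named above these are Msh3, Msh6, Ung, Ogg1, Mpg, Tdg, Mbd4, Apex2, Lig3, Ddb2, Ercc2 and Ercc1, and their RNA values carry this uncertainty.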

How the data were processed

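Input, m6A-RIP, Igf2bp3-RIP and Lin28a-RIP libraries of MuSCs were analysed from the deposited tables. The RIP tables hold unscaled whole-number counts per row or peak as the authors deposited them. The input table holds estimated counts per gene from the authors, most with decimals, and these were rounded for testing. The submitters' processing notes name FastQC, HISAT2 2.0.4, MACS2 1.4.3, DESeq2 1.42.0 and the builds GRCh38 and mm10; peak positions match mouse GRCm38 (mm10). The counting program and the strand setting are not given in the sources used here. In the input table the columns of Lin28a+ MuSCs have m6A-RIP names, and in the m6A-RIP table they share a name, so 4 columns were placed by group alone and are called replicates a and b. The Lin28a+ input columns had Spearman correlations of 0.943 with the control input and 0.511 to 0.515 with Lin28a+ m6A-RIP over 7950 genes.

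The main test was that of edgeR 4.0.16 in R 4.3.3 (TMM factors, filterByExpr, quasi-likelihood test, Benjamini-Hochberg adjustment over the whole table, adjusted p under 0.05). Relative-to-input tests used the interaction of cells and assay in 1 model with TMM within each assay. Rows within a gene were compared with diffSpliceDGE. The alternatives were DESeq2 1.42.0, RLE size factors, total counts, no filter, at least 10 counts in every library, each library left out, for Igf2bp3-RIP a replicate block, and for Lin28a-RIP peaks a minimum of 100 counts. The tests were also run on simulated counts with known changes, and the outcome is not reported here. Other software was limma 3.58.1, Python 3.11.15 and pandas 2.3.3. Standard errors and p-values of single genes rest on a spread shared among genes, since each group has 2 libraries. Between libraries of a group, chi-square per degree of freedom (1 is counting noise) was 1.70 and 1.80 for the input genes with whole-number values, 6.00% of genes, and 0.720 and 0.655 over all input genes, whose decimals leave this measure uncalibrated. It was 3.40 and 3.62 for m6A-RIP, 32.8 and 36.3 for Igf2bp3-RIP and 5.19 for Lin28a-RIP, so libraries of these assays were kept as separate replicates. Input libraries were kept separate as well, though this measure cannot show that they differ by more than counting noise over all genes. Leaving out each library counts a group as 1 sample. The libraries carry no molecular identifiers, so reads may be copies of 1 molecule.

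Gene positions and promoters are from RefSeq (GRCm38.p6), and 99.96% to 99.98% of rows matched a gene. The members and gene lists were chosen with earlier results of these data known. All members could be named; values per library were given for the called members with the largest differences in each branch (up to 4), those with opposite calls or a called interaction, and those with most Lin28a-RIP peaks. Other members and neighbouring genes named in the text were chosen after their values were seen.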

Additional observations from a re-analysis of the deposited data

Results flagged for a closer look

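The change in m6A-RIP differed from the change in RNA, by the interaction term of cells and assay, for 2 repair genes. For Gtf2h4 the m6A-RIP change minus the RNA change was -1.19 on the log2 scale, and for Ercc1 it was -0.87. The RNA of both genes was higher in both Lin28a+ libraries than in both control libraries. The m6A-RIP of Gtf2h4 was lower in both Lin28a+ libraries, and that of Ercc1 had a log2 fold change of -0.06 that did not pass. Scaled by total counts in place of TMM, Ercc1 was called lower in m6A-RIP. Both genes have a neighbour, Ddr1 and Cd3eap, whose part in the m6A-RIP counts was not tested.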

How the results depend on the processing

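No called member changed direction under an alternative. DESeq2 called 2 members higher and 1 lower in RNA in place of 15 and 5, and 1 in Igf2bp3-RIP relative to input in place of 0; the cause was not tested. With each library left out the RNA counts were 11 to 14 higher and 3 to 5 lower, with 3 lower without Lin28a+ replicate a, the Igf2bp3-RIP peaks called 0 to 1, with 1 without control replicate 1, and the members called in Igf2bp3-RIP relative to input 0 to 3. Scaled by total counts, the m6A-RIP calls were 8 higher and 9 lower in place of 11 and 5, and the median of all m6A-RIP genes moved by -0.10 while the share higher among all calls went from 49.0% to 38.9%. In RNA 3 of 20 calls were kept under every alternative and 14 under all but DESeq2, in m6A-RIP 11 of 16, and relative to input both. The RNA of members at a few counts per library, such as Ddb2 and Mutyh, is limited by depth, and Igf2bp3-RIP by the spread between libraries.

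For the Igf2bp3-RIP libraries, a replicate block called 2 member peaks in place of 0, in Mlh3 (1.43, adjusted p = 1.48e-04) and in Ddb1 (-0.63, adjusted p = 0.015), and 766 higher and 1222 lower of all 19465 peaks. The difference between the numbered libraries correlated between the groups at 0.688 across peaks, but the labels name no shared batch or animal and there are 2 pairs, so the block is an alternative only. No block was fitted for input, m6A-RIP or the comparisons relative to input. The Lin28a+ input columns carry the numbers 1 and 2 under m6A-RIP names, and both Lin28a+ m6A-RIP columns carry the number 1, so these numbers were not tied to libraries.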
